A study of Mus musculus with 13 samples.

Results

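The 10 genes described here mark granule cells and other inhibitory interneurons of the mouse olfactory bulb, and they were taken by symbol from a table of 34745 genes measured by total RNA sequencing of 13 bulbs. Each symbol matched 1 row, and all 10 genes were among the 17467 that passed the filter on low counts. Bulbs of wild-type C57BL/6 mice aged 7 to 8 weeks fell into a 1st and a 2nd set, each with its own untreated controls. The 1st set held 3 bulbs of mice given fine particulate matter (PM2.5) at 3 mg/kg, called the low dose here, and 4 controls. The 2nd set held 3 bulbs of mice given PM2.5 at 10 mg/kg, the high dose, and 3 controls. The treatment label also names 3 days for both doses, without saying how often PM2.5 was given or by which route, and the controls are labelled as having had no treatment. No label names a separate animal for each library, and p-values therefore cover only the spread among the libraries at hand, which may be technical.

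The olfactory bulb relays smell information from the nose, and most of its neurons are inhibitory. Granule cells, which have no axon, and periglomerular cells release GABA onto mitral and tufted cells, the projection neurons, and both kinds are renewed in adult mice by neuroblasts that migrate in from the wall of the lateral ventricle. Gad1 and Gad2 encode the enzymes that make GABA from glutamate, and Slc32a1 encodes the transporter that loads it into synaptic vesicles. Calb1 (calbindin), Calb2 (calretinin) and Pvalb (parvalbumin) are calcium-binding proteins that label different interneuron classes, and Synpr (synaptoporin) is a synaptic vesicle membrane protein. Sp8, Meis2 and Tshz1 are transcription factors of bulb interneurons and their precursors. Gad1, Gad2, Slc32a1, Meis2 and Calb1 are also expressed by inhibitory neurons of the neighbouring striatum. In bulk tissue, fewer cells of a type and less RNA per cell cannot be told apart.

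Total counts per library ran from 14336721 to 14665696 in the low-dose bulbs and 13032834 to 14095284 in their controls, and from 20227176 to 25548559 in the high-dose bulbs and 15387870 to 26989267 in theirs. The series text calls the mice male, but Xist, which is transcribed from the inactive X chromosome, ranged from 0.0992 to 0.555 CPM (counts scaled by library size) in the 2nd set and from 2245 to 2712 CPM in the 1st. The summed level of 4 Y-linked genes was 177 to 230.0 CPM in the 2nd set, against 0 to 0.210 CPM in the 1st. The sets thus differ in sex-linked expression, and each dose is set only against controls of the same set. Eomes and Tbx21, which mark mitral and tufted cells of the bulb, were detected in every library, at 76.5 to 110.4 CPM for Eomes and at 24.4 to 43.5 CPM for Tbx21. In the 2nd set, high-dose replicate 3 stood apart in markers of striatal and cortical neurons, and control replicate 2, the deepest library, stood apart from the other controls. Over the genes tested, the deviations of these libraries from their group means correlated at 0.50. That was the highest value for any PM2.5 library and control of the same set. Values without these libraries are given beside the results that moved most without them.

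On the length-normalised FPKM scale (fragments per kilobase, scaled by library size, as deposited), the level of the 10 genes spanned a wide range. Calb2 had a median of 273 FPKM over the 13 libraries (227 to 360 FPKM), and Gad1 followed with a median of 191 FPKM (162 to 228 FPKM). Calb2 was first and Gad1 second in each of the 13 libraries. Slc32a1 had a median of 100 FPKM (93.6 to 132 FPKM) and Gad2 one of 92.8 FPKM (75.5 to 102 FPKM), and their ranges overlapped. The transcription factors and Synpr formed the next group, at medians of 48.2 FPKM for Tshz1, 43.8 FPKM for Meis2, 42.9 FPKM for Synpr and 35.1 FPKM for Sp8, again with overlapping ranges. Calb1 and Pvalb were lowest, with medians of 2.32 FPKM (1.41 to 5.81 FPKM) and 2.14 FPKM (1.03 to 3.76 FPKM). So among the calcium-binding proteins, calretinin was by far the most abundant transcript, 53.4 to 205 times the FPKM of calbindin in the same library.

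**Figure D1:**
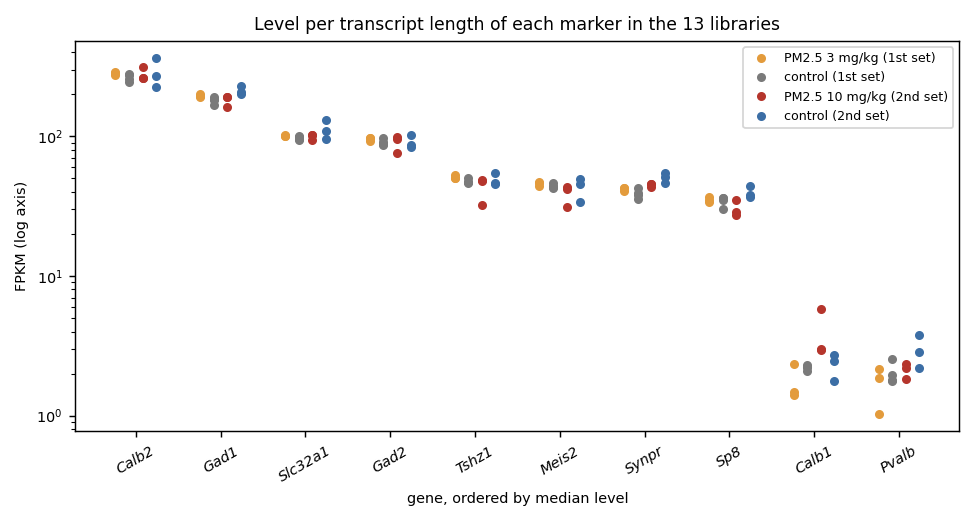
Level of each gene in FPKM on a log axis, 1 point per library, ordered by the median over the 13 libraries. Calb2 and Gad1 lie at the top, with medians of 273 and 191 FPKM, and Calb1 and Pvalb at the bottom, with medians of 2.32 and 2.14 FPKM.

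The order at the top rests on the gene length behind the FPKM. The length implied by the deposited counts and FPKM equalled the summed exons of the GENCODE M21 annotation for Slc32a1 (2797 bases). It differed for the other genes, most for Tshz1 (10192 against 5848 bases), Pvalb (1687 against 1041 bases), Meis2 (18345 against 12043 bases) and Gad1 (10204 against 7639 bases). Calb2 went the other way (1430 against 1743 bases). With the summed exon lengths in their place, Gad1 came first with a median of 255 FPKM and Calb2 second with 224 FPKM, and Pvalb (3.47 FPKM) came above Calb1 (2.59 FPKM). Tshz1 and Meis2 then had medians of 84.0 and 66.6 FPKM, and their places in the order stayed. The ratio of Gad1 to Gad2 was between 1.89 and 2.65 in all libraries with the deposited FPKM. Of the annotated antisense partners, Gad1os had 115 counts over the 13 libraries, against 437650 for Gad1, and Gm14205, which overlaps Slc32a1, had 29 counts, against 64698. The strand setting of the counting is not given in the sources used here, so reads of such overlapping pairs cannot be told apart.

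Promoters are shown for Gad1, Synpr and Sp8, because these are the genes whose high-dose libraries all lay below their controls. The RefSeq windows (GRCm38.p6) run from 250 bases before to 50 bases after an annotated start, and 7 of the 10 genes had at least 1. The windows were searched on both strands for a homeodomain core (TAATTA), a GC box (GGGCGG), a cAMP response element (TGACGTCA) and a Meis core (TGACAG), and capitals mark the matches, which may be of either strand. RefSeq gives Gad1 1 start, Synpr 2 and Sp8 3, and the window of the start numbered 1 is printed for each. The Gad1 window is chr2:70561879-70562178 on the plus strand, the Synpr window is chr14:13284530-13284829 on the plus strand and the Sp8 window is chr12:118846079-118846378 on the plus strand.
Gad1: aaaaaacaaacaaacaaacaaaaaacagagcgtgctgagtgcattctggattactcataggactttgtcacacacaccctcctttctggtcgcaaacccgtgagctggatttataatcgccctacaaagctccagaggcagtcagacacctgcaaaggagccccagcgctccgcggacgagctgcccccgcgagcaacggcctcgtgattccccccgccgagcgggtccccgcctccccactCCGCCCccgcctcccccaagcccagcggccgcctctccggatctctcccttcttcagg
Synpr: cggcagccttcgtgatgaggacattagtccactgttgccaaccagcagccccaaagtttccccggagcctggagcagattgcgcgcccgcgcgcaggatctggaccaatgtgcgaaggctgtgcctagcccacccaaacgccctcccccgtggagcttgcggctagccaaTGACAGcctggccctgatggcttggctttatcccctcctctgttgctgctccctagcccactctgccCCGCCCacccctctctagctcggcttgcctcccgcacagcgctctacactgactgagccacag
Sp8: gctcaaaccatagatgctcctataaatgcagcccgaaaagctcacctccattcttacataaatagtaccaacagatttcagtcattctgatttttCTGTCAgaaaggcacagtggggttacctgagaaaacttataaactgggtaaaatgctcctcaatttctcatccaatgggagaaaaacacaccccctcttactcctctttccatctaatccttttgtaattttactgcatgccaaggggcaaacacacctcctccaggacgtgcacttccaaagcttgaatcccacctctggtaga

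The Gad1 window held 1 GC box, the printed Synpr window 1 GC box and 1 Meis core, and the printed Sp8 window 1 Meis core, and no matches overlapped. Of the windows not printed, the second of Synpr held no match, the second of Sp8 held 1 GC box and the third of Sp8 held 1 homeodomain core. Of 32851 mouse promoter windows of the same length, 35.7% held a GC box and 19.2% a Meis core, while 5.29% held the homeodomain core and 1.79% the cAMP response element. The GC box, the commonest of the searched motifs, thus lay in the only window of Gad1, in 1 of 2 of Synpr and in 1 of 3 of Sp8. For Sp8 it lay only among the windows not printed. These shares are per window, and a gene with more windows has more places for a match. The windows of Gad2, Slc32a1, Pvalb and Meis2 held no GC box. Whether these genes differ in GC boxes from Gad1, Synpr and Sp8, which were picked by their high-dose values, was not tested. A match to these letters is a description of the sequence and says nothing of binding.

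At the low dose, none of the 10 genes differed from controls beyond the adjusted threshold. No gene of the whole table did either (0% of 17467 at an adjusted p under 0.05, edgeR quasi-likelihood test with Benjamini-Hochberg adjustment over all genes tested). None of the 10 had an unadjusted p under 0.05, against 2.46% of all genes (429 genes). DESeq2 called 17 genes at the low dose, none of them among the 10. The log2 fold changes were positive for 8 of the 10 genes, with a median of 0.08, beside 0.00 over all genes.

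For the GABA genes, Gad1 stood at 1944, 2019.9 and 1928 CPM in the low-dose bulbs, against 1669, 1859, 1814 and 1885 CPM in their controls. All low-dose libraries lay above all controls, as they did for 3.71% of genes tested, and the log2 fold change was 0.12 (SE 0.09, adjusted p = 1, edgeR). Gad2, at 545, 580.3 and 578 CPM in the low-dose bulbs and 518, 510.2, 532 and 563 CPM in controls, overlapped between groups at a log2 fold change of 0.10 (SE 0.10). Slc32a1 had 274, 285 and 275 CPM in the low-dose bulbs and 265, 277, 272 and 255 CPM in controls, also overlapping, and its log2 fold change was 0.06 (SE 0.10). The 95% intervals of the ratio to controls were 0.957 to 1.23 for Gad1, 0.928 to 1.23 for Gad2 and 0.901 to 1.2 for Slc32a1, so that ratios above 1.23 or below 0.901 lay outside all 3.

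Among the calcium-binding proteins, Calb1 was measured at 12.4, 7.91 and 7.52 CPM in the low-dose bulbs and at 11.9, 11.3, 12.4 and 11.7 CPM in controls. Low-dose replicate 1 lay just above the highest control while the other low-dose libraries lay below every control, and the log2 fold change was -0.34 (SE 0.25, adjusted p = 1, edgeR). Calb2 had 383, 401 and 406 CPM in the low-dose bulbs and 359, 387, 344 and 385 CPM in controls, for a log2 fold change of 0.11 (SE 0.13). Pvalb was near the bottom of the measured range, with 53, 25 and 46 counts (3.54, 1.73 and 3.12 CPM) in the low-dose bulbs and 43, 42, 43 and 59 counts (3.25, 2.96, 3.00 and 4.18 CPM) in controls. Its groups overlapped, and its log2 fold change of -0.26 (SE 0.27) had a ratio interval of 0.561 to 1.25. The ratio interval of Calb1 was 0.540 to 1.15. Changes of Pvalb and Calb1 inside these intervals were not told apart from no change, and the part of sequencing depth in their width was not tested.

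The vesicle gene Synpr was at 413, 415 and 396 CPM in the low-dose bulbs and at 344, 368, 378 and 408 CPM in controls, where replicate 4 overlapped the low-dose range (log2 fold change 0.12, SE 0.08). The transcription factors overlapped between groups as well. Sp8 had 149, 162 and 154 CPM in the low-dose bulbs and 134, 159.9, 154 and 156 CPM in controls. Meis2 had 786, 861 and 839 CPM in the low-dose bulbs and 780.0, 769, 792 and 820.0 CPM in controls. Tshz1 had 499, 534 and 503 CPM in the low-dose bulbs and 472, 477, 501 and 459 CPM in controls. The log2 fold changes of these 3 genes were 0.04 (SE 0.10), 0.07 (SE 0.12) and 0.10 (SE 0.12).

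**Figure D2:**
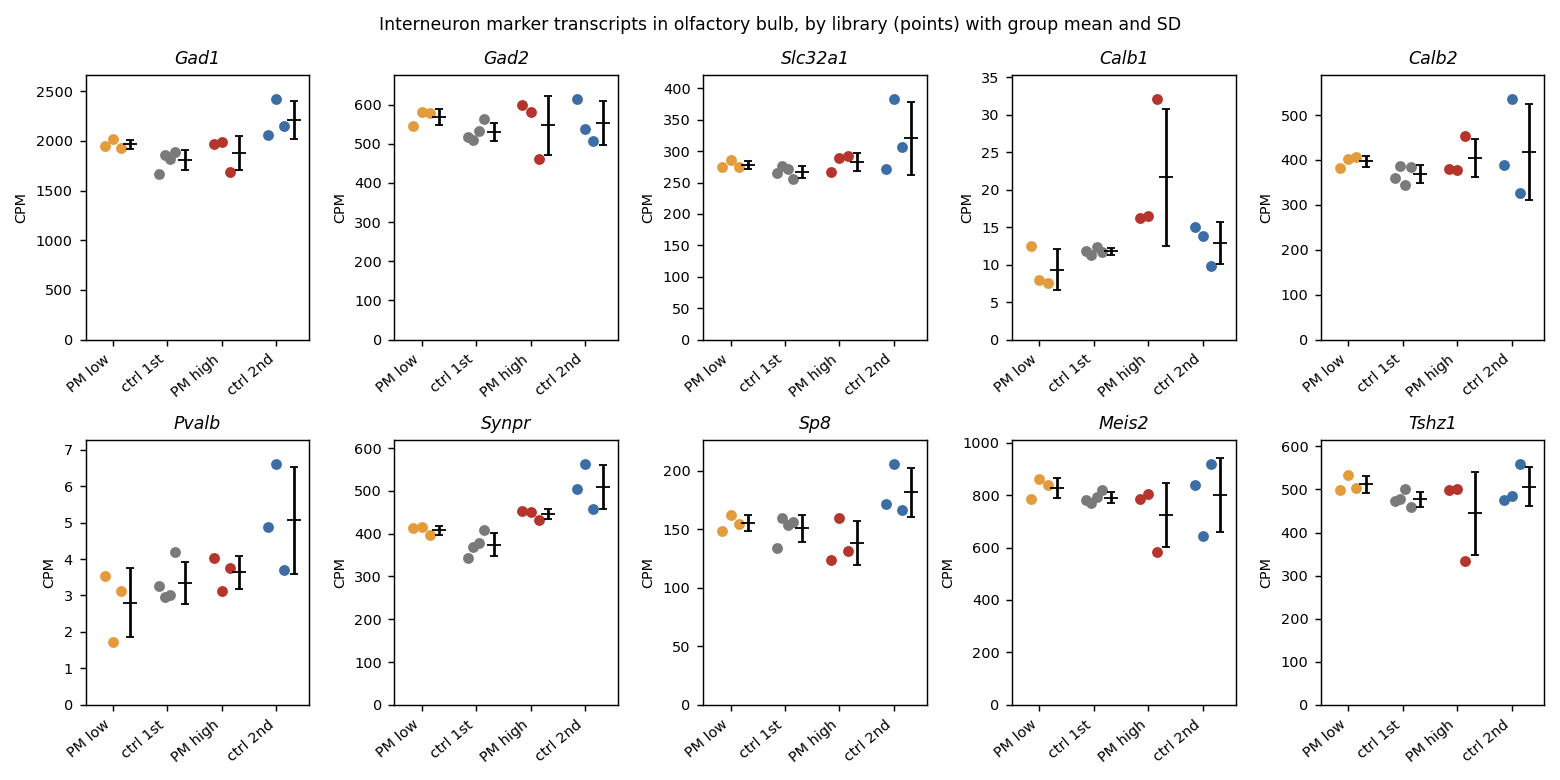
Level of each of the 10 genes in CPM, 1 panel per gene, with 1 point per library and the mean and SD of each group, for the low-dose bulbs and their controls and the high-dose bulbs and theirs. In the high-dose groups, Gad1, Synpr and Sp8 lie below every control of the 2nd set and Calb1 lies above, with replicate 3 at 32.1 CPM.

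At the high dose, again none of the 10 genes passed the adjusted threshold, where 0.641% of the genes tested did (112 genes, 91 of them higher and 21 lower). The values leaned lower: 9 of the 10 log2 fold changes were negative, with a median of -0.18, beside -0.01 over all genes. Sp8, Gad1 and Synpr had unadjusted p-values under 0.05 and lower levels, as 3.89% of all genes did, and Calb1 had one with a higher level, as 5.75% did. In all, 4 of the 10 genes were under that unadjusted limit, against 9.65% of all genes. For the same 3 lower genes no high-dose library overlapped a control, which held for 4.36% of all genes in that direction, and Calb1 was the 1 gene wholly above its controls, which held for 6.08%. The smallest adjusted p among the 10 was 0.161, for Sp8, and DESeq2 called none of the 10 either.

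Sp8, a zinc-finger transcription factor needed for the making of calretinin-positive and other bulb interneurons (annotated in mm10 at 118846329 to 118852578 of chromosome 12), had the most distinct values. It stood at 124, 159.9 and 132 CPM in the high-dose bulbs, against 172, 206 and 167 CPM in their controls. The highest high-dose library lay just below the lowest control. The means were 138 ± 19.0 CPM in the high-dose bulbs and 182 ± 21.3 CPM in controls (SD, n = 3 each), and the log2 fold change of -0.39 (SE 0.11, adjusted p = 0.161, edgeR) corresponded to a ratio of 0.762, with a 95% interval of 0.648 to 0.897. Without high-dose replicate 3 and control replicate 2 the log2 fold change was -0.27 (adjusted p = 0.379, edgeR).

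Gad1, which spans 70553072 to 70602014 of chromosome 2 in mm10, was at 1964, 1984 and 1682 CPM in the high-dose bulbs and at 2057, 2425 and 2146 CPM in their controls. Replicate 3 was the lowest high-dose library and control replicate 2 the highest control. The log2 fold change was -0.24 (SE 0.09, adjusted p = 0.377, edgeR), a ratio of 0.849 (95% interval 0.741 to 0.973). It was -0.15 without high-dose replicate 3, and -0.10 without that library and control replicate 2. Thus the size of the Gad1 difference rested in part on those libraries.

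The other enzyme gene, Gad2, at 22622205 to 22693874 of the same chromosome, did not share this ordering. It had 600.0, 580.2 and 461 CPM in the high-dose bulbs and 615, 537 and 507 CPM in controls, so that replicates 1 and 2 lay within the control range and replicate 3 lay below it. Its log2 fold change was -0.02 (SE 0.10, adjusted p = 0.991, edgeR) and turned to 0.11 without high-dose replicate 3. The vesicular transporter gene Slc32a1, at 158610767 to 158615748 of chromosome 2, had 267, 289.6 and 292 CPM in the high-dose bulbs and 271, 384 and 307 CPM in controls. Only high-dose replicate 1 lay below every control, and control replicate 2 was far above the rest. The log2 fold change of Slc32a1 was -0.18 (SE 0.10, adjusted p = 0.650, edgeR) and -0.05 without control replicate 2.

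Synpr, at 13284780 to 13615459 of chromosome 14 in mm10, stood at 452, 452 and 432 CPM in the high-dose bulbs and at 505, 563 and 458 CPM in their controls. The groups did not overlap, but replicate 3 of the controls lay close to high-dose replicates 1 and 2. The log2 fold change was -0.19 (SE 0.09, adjusted p = 0.493, edgeR), with a ratio of 0.874 (95% interval 0.769 to 0.995). Leaving out high-dose replicate 3 and control replicate 2 gave -0.10.

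Calb1, at 15881264 to 15908064 of chromosome 4 in mm10, went the other way. It was counted 327, 328 and 805 times (16.2, 16.5 and 32.1 CPM) in the high-dose bulbs and 228, 359 and 158 times (15, 13.9 and 9.75 CPM) in their controls. Replicates 1 and 2 lay just above the highest control, and replicate 3 stood far above both. The log2 fold change was 0.75 (SE 0.26, adjusted p = 0.298, edgeR), a ratio of 1.68 with a 95% interval of 1.15 to 2.47. Without high-dose replicate 3 the log2 fold change was 0.36 (adjusted p = 0.616, edgeR).

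The other calcium-binding proteins overlapped between groups. Calb2, at 110142539 to 110168206 of chromosome 8 in mm10, had 380.0, 378 and 452 CPM in the high-dose bulbs and 389.6, 537 and 327 CPM in controls. All 3 high-dose libraries lay inside the control range, and the log2 fold change of -0.05 (SE 0.14, adjusted p = 0.969, edgeR) turned to 0.15 without control replicate 2. Pvalb, at 78191114 to 78206400 of chromosome 15, had 81, 62 and 94 counts (4.02, 3.12 and 3.75 CPM) in the high-dose bulbs and 74, 171 and 60 counts (4.87, 6.61 and 3.70 CPM) in controls. Its log2 fold change was -0.49 (SE 0.27, adjusted p = 0.619, edgeR) and -0.26 without control replicate 2, its highest library.

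Meis2, a homeodomain transcription factor of periglomerular and granule cells at 115863064 to 116065839 of chromosome 2 in mm10, had 785, 805 and 585 CPM in the high-dose bulbs and 838, 644 and 919 CPM in controls. High-dose replicate 3 was the lowest library and control replicate 2 the next lowest, and the log2 fold change of -0.14 (SE 0.13, adjusted p = 0.834, edgeR) was 0.00 without high-dose replicate 3. Tshz1, a zinc-finger factor that helps new granule and periglomerular cells leave the migratory stream, had 499, 501 and 333 CPM in the high-dose bulbs and 476, 485 and 559 CPM in controls. Again only replicate 3 lay below the controls. The log2 fold change of Tshz1 was -0.19 (SE 0.13, adjusted p = 0.735, edgeR) and -0.01 without that library. So within the transcription factors, Sp8 kept a lower value without high-dose replicate 3 (-0.34), while Meis2 and Tshz1 did not.

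**Figure D3:**
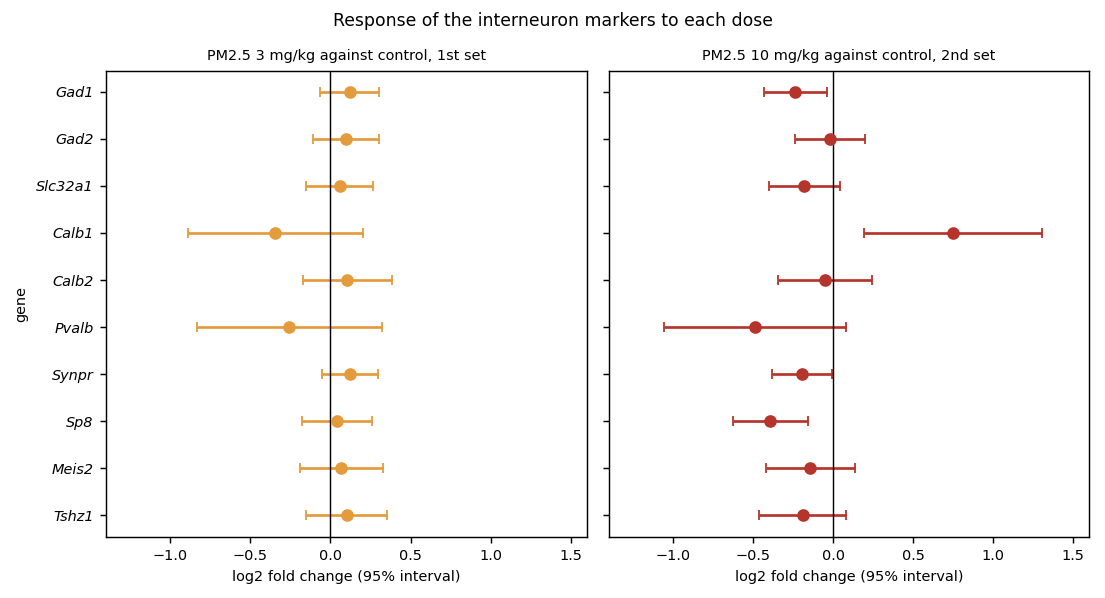
Log2 fold change of each gene against the controls of its own set, with the 95% interval from the edgeR fit, for the low and the high dose. At the low dose all 10 intervals include 0, and at the high dose those of Sp8, Gad1 and Synpr lie below 0 and that of Calb1 lies above it, before adjustment over all genes.

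High-dose replicate 3, which had the highest Calb1 and the lowest Gad1, Gad2, Meis2 and Tshz1 of its set, also had more RNA of striatal and cortical neuron markers. The summed level of 13 such markers (Drd1 and Neurod2 among them) was 236 to 347 CPM in the high-dose bulbs and 213 to 229 CPM in their controls, with replicate 3 at 347 CPM. None of the 13 was at 0 in any library, 11 of 13 had positive log2 fold changes at the high dose and none passed the adjusted threshold with edgeR, while DESeq2 called Neurod2 (log2 fold change 1.24, adjusted p = 0.0481). In the 1st set the same sum was 216 to 232 CPM in the low-dose bulbs and 204 to 239 CPM in controls. Red blood cell genes (4 hemoglobin genes and Alas2) had a summed level of 114, 208 and 302 CPM in the high-dose bulbs and 97.2 to 119 CPM in controls. High-dose replicate 1 lay within the control range, all 5 log2 fold changes were positive and none passed the adjusted threshold with edgeR. Alas2, an enzyme of heme synthesis in red cell precursors, was called with DESeq2 (1.6, adjusted p = 0.00408) and without high-dose replicate 1 (1.94, adjusted p = 0.0121, edgeR). The part of either in the values of the interneuron genes was not tested.

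**Figure D4:**
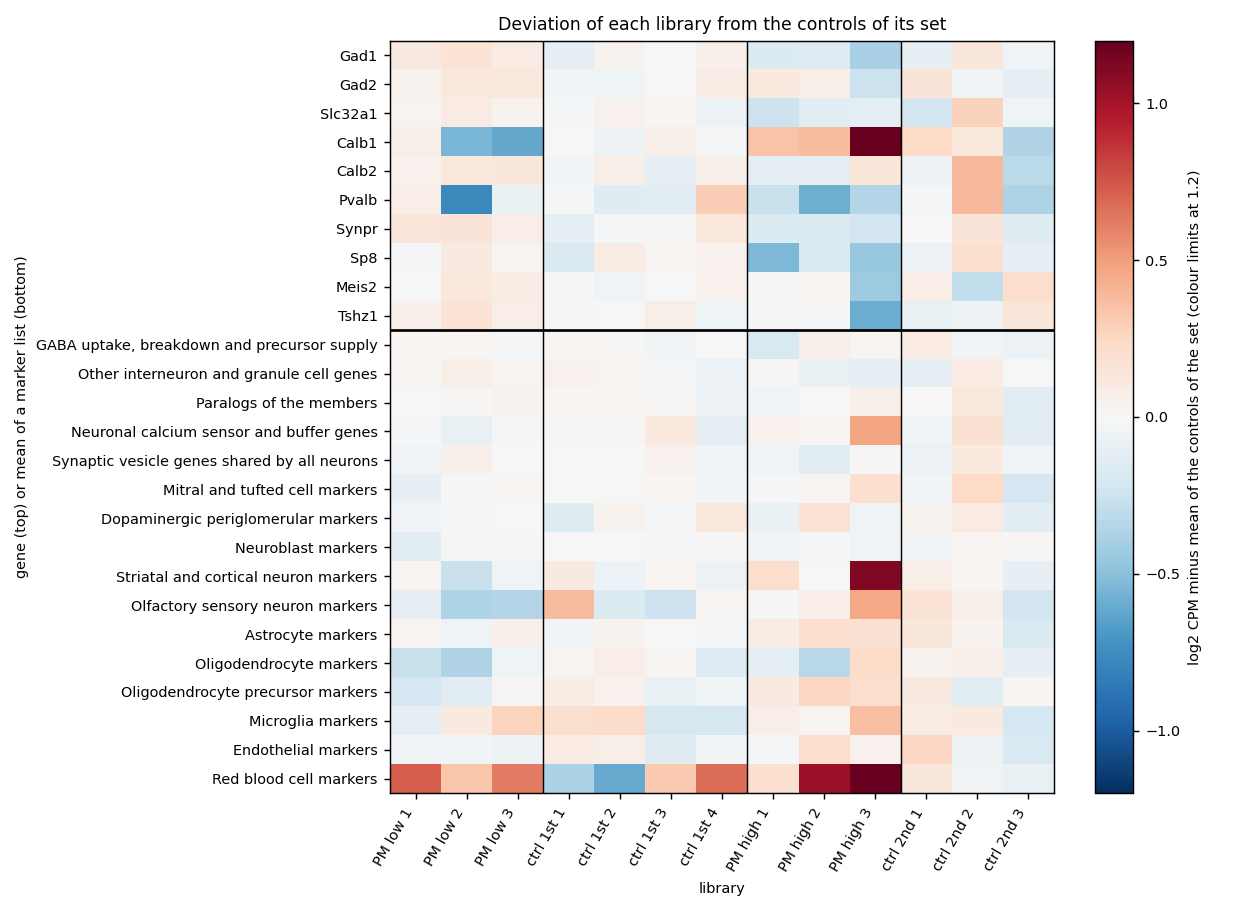
Log2 CPM of each library minus the mean of its own set's controls, for the 10 genes and for the mean of each marker list. Colours end at 1.2 on the log2 scale. High-dose replicate 3 shows Calb1, the striatal and cortical list and the red blood cell list high, and Gad1, Gad2, Sp8, Meis2 and Tshz1 among the low genes.

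The high-dose response was also set against the low-dose response in 1 fit, which asks whether a gene differed from its controls by unlike amounts in each set. The sets differ in dose, in depth and in sex-linked expression, and these cannot be told apart. None of the 10 genes passed the adjusted threshold (0.00573% of genes did, 1 gene). At an unadjusted p under 0.05 stood 4 of the 10, against 5.99% of all genes. These were Calb1 with a difference of log2 fold changes of 1.09 (SE 0.36), Sp8 with -0.43 (SE 0.15), Gad1 with -0.36 (SE 0.13) and Synpr with -0.32 (SE 0.12), and their smallest adjusted p was 0.675 (edgeR). Without high-dose replicate 3 the differences were 0.70 for Calb1, -0.38 for Sp8, -0.27 for Gad1 and -0.28 for Synpr.

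Between the controls of the 2nd and the 1st set, 2 of the 10 genes passed the adjusted threshold, a share close to the 19.3% of all genes that did (10.5% called higher). Synpr was higher, at 505, 563 and 458 CPM in the 2nd-set controls and 344, 368, 378 and 408 CPM in the 1st-set controls. Its log2 fold change was 0.44 (SE 0.08, adjusted p = 0.00349, edgeR). Gad1 was also higher, by 0.29 on the log2 scale (SE 0.09, adjusted p = 0.0290, edgeR), all 3 libraries of the 2nd-set controls lying above all 4 of the 1st-set controls. The Gad1 call was lost without 2nd-set control replicate 2 (adjusted p = 0.132, edgeR), without replicate 1, 2 or 3 of the 1st-set controls (adjusted p between 0.0569 and 0.0882), with limma on the FPKM values, and with libraries scaled by total counts only (log2 fold change 0.23, adjusted p = 0.0623). Without 2nd-set control replicate 1, Slc32a1 was called as well (log2 fold change 0.34, adjusted p = 0.0136, edgeR). Without 2nd-set control replicate 3, Sp8 (0.33, adjusted p = 0.0490) and Pvalb (0.79, adjusted p = 0.0436) were called as well. Slc32a1 was also called with DESeq2 (adjusted p = 0.0488) and with no filter on low counts (adjusted p = 0.0344, edgeR), and so was Sp8 with no filter (adjusted p = 0.0364, edgeR). Gad1, Synpr and Sp8 did not overlap between the control groups, as 15.8% of all genes did not in that direction. All 10 log2 fold changes were positive, with a median of 0.22, beside -0.02 over all genes. This was not particular to them. Synaptic vesicle genes shared by all neurons were positive in 15 of 15 cases (median 0.24, 8 called higher). Of 15 neuronal calcium sensor and buffer genes, 13 were positive (median 0.26). Other interneuron and granule cell genes were positive in 16 of 25 cases (median 0.18), and GABA uptake, breakdown and precursor genes in 5 of 10 (median -0.01). Because each set's controls are the base of its own comparison, the high-dose bulbs, at 452, 452 and 432 CPM of Synpr, stood below the 2nd-set controls and above every 1st-set control.

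Of 25 other genes of bulb interneurons and granule cells, none passed the adjusted threshold at either dose. Their log2 fold changes at the high dose ran from -0.44 to 1.19, the highest being that of Sst. At the high dose 19 of the 25 were negative, with a median log2 fold change of -0.10, beside -0.01 over all genes. At the low dose 18 of the 25 were positive, with a median of 0.04. Sst, the neuropeptide somatostatin, had 17.9, 7.35 and 30.1 CPM in the high-dose bulbs and 7.96, 10.8 and 5.37 CPM in controls. Those groups overlapped, and the log2 fold change was 1.19 (SE 0.42, adjusted p = 0.331, edgeR). It was 0.66 without high-dose replicate 3 (adjusted p = 0.607, edgeR) and 1.56 without replicate 2 (adjusted p = 0.0492, edgeR). Vip, vasoactive intestinal peptide, had 20.4, 20.7 and 26.2 CPM in the high-dose bulbs and 28.6, 29.3 and 25.1 CPM in controls, again overlapping (log2 fold change -0.30, SE 0.13, adjusted p = 0.476, edgeR).

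Between the controls of the sets, 4 of these 25 genes were higher in the 2nd set and 1 lower, a share again close to the 19.3% of all genes called, and they are named here after their values were seen. The higher ones were the neuropeptide genes Crh (log2 fold change 1.38), Vip (0.82) and Penk (0.75) and the homeobox gene Dlx5 (0.45). The lower one was the transcription factor Sall3 (-0.33).

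Genes that take up GABA, break it down or supply its precursor did not pass the adjusted threshold at either dose (0 of 10), and their median log2 fold change at the high dose was 0.00. Slc1a1, a glutamate transporter of neurons, had the smallest p among them, with 153, 151 and 149 CPM in the high-dose bulbs and 163, 163 and 181 CPM in controls. All high-dose libraries lay below the controls, as they did for 4.36% of genes tested, and the log2 fold change was -0.16 (SE 0.07, adjusted p = 0.501, edgeR). Of 13 paralogs of the 10 genes, 11 passed the filter on low counts and none passed the adjusted threshold at either dose. Calbindin-D9k (S100g) had 0 counts in every library, and oncomodulin (Ocm), a relative of parvalbumin, had a count in 1 library only. None of 15 synaptic vesicle genes shared by all neurons passed the adjusted threshold at the high dose; 12 were negative, with a median log2 fold change of -0.11, beside -0.18 for the 10 interneuron genes. Mitral and tufted cell markers had a median of -0.06 at the high dose, with none of 10 past the threshold with edgeR. DESeq2 called 1 of them, Tbr1 (log2 fold change 0.85, adjusted p = 0.0497). Tbr1 had 27.7, 27.4 and 56.0 CPM in the high-dose bulbs and 23.1, 20.3 and 18.3 CPM in controls. Without high-dose replicate 3 its log2 fold change was 0.44 (adjusted p = 0.388, edgeR).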

How the data were processed

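Total RNA of 13 mouse olfactory bulbs was sequenced from stranded libraries (RNeasy and TruSeq Stranded Total RNA kits, per the labels' protocols). HISAT2 and the mm10 build are named in the submitters' processing notes. No source used here gives the aligner's version, or whether counting used the strand. The authors deposited raw counts and FPKM values per gene; counts served for tests and for CPM (counts over the TMM-scaled library size), and the deposited FPKM for levels between genes. Genes were filtered with filterByExpr and fitted with edgeR 4.0.16 (quasi-likelihood, robust, TMM) in R 4.3.3, in 1 model of 4 groups over 13 libraries with 9 residual degrees of freedom. Adjusted p-values are Benjamini-Hochberg over 17467 genes at a threshold of 0.05. SE is the log2 fold change over the square root of F. The script was tested on simulated counts. There edgeR recovered 29.9% of 1.5-fold, 77.6% of 2-fold and 95.5% of 4-fold changes at the high dose. DESeq2 1.42.0 and limma 3.58.1, the latter on log2(FPKM + 1) and log2(FPKM + 0.1), other scalings and filters, separate fits of each set, a replicate block and leaving out libraries were alternatives. Replicates of a group never agreed within sampling noise. Deviations by library used log2 with 0.5 CPM added.

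The 10 genes and the marker lists were chosen with earlier results of these data known. The text names all 10 genes and, from each other list, those called at either dose, or otherwise at most 2 with the smallest p at the high dose, of which a few are printed.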

Additional observations from a re-analysis of the deposited data

How the results depend on the processing

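No alternative called any of the 10 genes at the low dose, at the high dose or in the difference of responses. The number of genes called in the whole table moved more. At the low dose, 0 became 17 with DESeq2, 2 with limma on log2(FPKM + 1) and 9 with separate fits of each set, and ranged from 0 to 2 when a library was left out. At the high dose, 112 became 281 with DESeq2 (199 higher and 82 lower), 69 at 1 CPM or more in every library and 4 with separate fits, and ranged from 21 (without 2nd-set control replicate 3) to 138 when a library was left out. In the difference of responses, 1 became 15 with DESeq2, 2 with no filter and 0 with limma on log2(FPKM + 1), with a range of 0 to 6; separate fits give no such difference. Between the control groups, 3364 ranged from 1340 (without 2nd-set control replicate 2) to 4073; it split into 1837 higher and 1527 lower, but into 1354 higher and 1870 lower with total counts only.

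When a library was left out, some log2 fold changes close to 0 changed sign. At the low dose Sp8 ranged from -0.014 to 0.069. At the high dose Gad2 ranged from -0.092 to 0.11, Calb2 from -0.20 to 0.15, Meis2 from -0.29 to 0.00046 and Slc17a7, a vesicular glutamate transporter, from -0.0072 to 0.31. In the difference of responses Gad2 ranged from -0.19 to 0.0085, Calb2 from -0.31 to 0.046 and Pvalb from -0.49 to 0.0011. Between the control groups Gad2 ranged from -0.048 to 0.12, Calb1 from -0.019 to 0.29, Calb2 from -0.032 to 0.33 and Meis2 from -0.091 to 0.17. Meis2 also gave -0.034 with total counts only, -0.016 at 1 CPM or more in every library, and -0.050 and -0.051 with limma on log2(FPKM + 1) and log2(FPKM + 0.1). The cause was not tested.

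The labels give groups the same replicate numbers, but same-numbered libraries deviated together with correlations of only -0.38 to 0.13, and 1 of 6 PM2.5 libraries correlated best with its own number. The replicate block called 5 genes at the high dose and 0 in the difference.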

Other observations

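Of 15 other genes for neuronal calcium sensors and buffers, none passed the adjusted threshold at the high dose, and 10 were positive, with a median log2 fold change of 0.06, beside -0.01 over all genes. Hpca, which encodes the calcium sensor hippocalcin, had 61.7, 64.5 and 87.1 CPM in the high-dose bulbs and 49.0, 60.1 and 45.4 CPM in controls (log2 fold change 0.47, SE 0.15, adjusted p = 0.223, edgeR). Vsnl1, which encodes visinin-like protein, had 117, 107 and 159.8 CPM in the high-dose bulbs and 94.9, 107 and 65.2 CPM in controls (log2 fold change 0.53, SE 0.17, adjusted p = 0.252, edgeR). For both genes, as for Calb1, replicate 3 was the highest of the high-dose libraries, and without it the log2 fold changes were 0.31 for Hpca and 0.35 for Vsnl1.

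Among the lists of other cell types, C1qa, a complement component made by microglia, was the only gene called at either dose with edgeR and all libraries. Slc1a2, a glutamate transporter of astrocytes, was called at the high dose without control replicate 1 of the 2nd set (log2 fold change 0.57, adjusted p = 0.0427, edgeR). C1qa had 49.8, 51.7 and 66.7 CPM in the high-dose bulbs and 27.3, 41.5 and 24.9 CPM in controls, and rose by 0.84 on the log2 scale (SE 0.17, adjusted p = 0.0360, edgeR). It was called under 11 of 23 alternatives, and not under separate fits of each set (adjusted p = 0.355) or the replicate block (adjusted p = 0.236). The call was also lost when any 1 of the 4 controls or of PM2.5 replicates 2 and 3 of the 1st set was left out, or of control replicates 1 and 3 or PM2.5 replicates 2 and 3 of the 2nd (adjusted p between 0.0508 and 0.158).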
